A study of Homo sapiens with 12 samples.

Results

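Insulin and the insulin-like growth factors (IGFs) reach a cell through a small set of receptors, docking proteins and secreted binding proteins, and 8 of these genes are described here in RCC4 cells: the docking proteins IRS1 and IRS2, the receptors INSR, IGF1R and IGF2R, and the binding proteins IGFBP3, IGFBP4 and IGFBP6. They were chosen by name as components of the pathway, with earlier results of these data known. All 8 were among the 23106 gene symbols in the count tables, and all 8 passed the filter on low counts. RCC4 is an established line of clear cell renal cell carcinoma (ccRCC) that lacks functional VHL, the protein that marks hypoxia-inducible factors (HIFs) for destruction, so HIF-1α and HIF-2α accumulate at ordinary oxygen. The study knocked down HIF1A and EPAS1, the genes of HIF-1α and HIF-2α, to find which genes depend on each factor, and sequenced polyadenylated RNA from 12 libraries.

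Each of 4 groups held 3 biological replicates, numbered 1 to 3 in every group. All cells were grown in 21% oxygen and 10% fetal bovine serum, transfected with siRNA pools at 2 nM in total, given fresh medium at 24 h and harvested at 48 h. The control siRNA group received 2 nM of non-targeting siRNA. The HIF1A siRNA group received 1 nM of HIF1A siRNA and 1 nM of control siRNA, and the HIF2A siRNA group 1 nM of EPAS1 siRNA and 1 nM of control siRNA. The double knockdown received 1 nM of each targeting siRNA and, unlike the other groups, no control siRNA. A single cell line was used, so the values speak for RCC4 cells in serum, which carries insulin and IGFs of its own.

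When insulin binds INSR, or IGF-I or IGF-II binds IGF1R, the receptor phosphorylates itself and then the docking proteins IRS1 and IRS2, which recruit PI3-kinase and so switch on AKT and mTOR. IGF2R carries no kinase and clears IGF-II by taking it to lysosomes. The IGF binding proteins hold IGFs outside the cell, and IGFBP3 is the main carrier in blood. AKT keeps FOXO transcription factors out of the nucleus, and IRS2 and INSR are both known as genes that FOXO factors can switch on when insulin signalling is low.

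The 250 bases upstream of the annotated start are shown for IRS2 and INSR, the members that passed the test against control siRNA in some comparison, and for IGFBP3, the most abundant member. They are RefSeq sequence on GRCh38.p14, the minus strand in each case, written 5′ to 3′ and ending at the base before the start: chr13:109786584-109786833 for IRS2, chr19:7294415-7294664 for INSR and chr7:45921273-45921522 for IGFBP3. Capitals mark the letters GCGTG or ACGTG, the core of the HIF response element, and CAAAACAA, the letters of the insulin response element that FOXO factors bind, each on either strand.
IRS2: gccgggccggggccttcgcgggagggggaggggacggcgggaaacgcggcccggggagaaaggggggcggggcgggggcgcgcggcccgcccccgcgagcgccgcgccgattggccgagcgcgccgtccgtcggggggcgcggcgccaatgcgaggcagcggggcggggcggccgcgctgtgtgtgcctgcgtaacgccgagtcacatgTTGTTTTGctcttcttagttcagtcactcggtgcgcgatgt
INSR: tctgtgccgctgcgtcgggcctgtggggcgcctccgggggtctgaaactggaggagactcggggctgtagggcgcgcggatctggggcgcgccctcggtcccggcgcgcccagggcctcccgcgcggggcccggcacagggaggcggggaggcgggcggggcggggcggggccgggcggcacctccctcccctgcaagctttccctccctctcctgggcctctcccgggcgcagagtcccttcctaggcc
IGFBP3: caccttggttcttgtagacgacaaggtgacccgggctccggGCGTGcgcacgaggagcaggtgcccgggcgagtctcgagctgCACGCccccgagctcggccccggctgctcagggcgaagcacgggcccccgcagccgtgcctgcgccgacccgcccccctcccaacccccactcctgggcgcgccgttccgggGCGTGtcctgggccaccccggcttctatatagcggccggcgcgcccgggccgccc

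IRS2 held no HIF core in this window and 1 match to CAAAACAA, read on the opposite strand as TTGTTTTG, whose first base lay 41 bases upstream of the start. INSR held none of these letters. IGFBP3 held GCGTG 3 times. Of the other members, IRS1 held GCGTG once, IGF1R held 4 matches to GCGTG and 1 to ACGTG, and IGFBP4 and IGFBP6 held none. IGF2R held 6 matches to ACGTG, which were 3 copies of CACGTG, a word that reads the same on both strands and so counts on each. Over the 35116 windows of the same length in the RefSeq table, 43.2% held GCGTG or ACGTG, 6.34% held CACGTG and 1.46% held CAAAACAA. The search for CAAAACAA was chosen after the IRS2 sequence had been read. A match describes letters and is not a measured binding site, and RefSeq coordinates are not those of the GRCh37 build on which the authors counted reads.

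IRS2 was the member that moved with the knockdowns. Its RNA fell with HIF2A siRNA and fell further in the double knockdown, while INSR rose in the double knockdown and the other 6 members passed the test in none of the comparisons. A gene is said to be called where its Benjamini-Hochberg adjusted p from the edgeR quasi-likelihood fit was under 0.05. By this rule 0 of the 8 members were called with HIF1A siRNA against control siRNA, where 1.17% of all genes tested were called. With HIF2A siRNA against control siRNA 1 member, IRS2, was called, against 0.0857% of all genes. In the double knockdown against control siRNA 2 members, IRS2 and INSR, were called, against 10.3% of all genes. These 3 comparisons share the control libraries.

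Comparing the knockdowns with each other, 1 member was called between HIF1A siRNA and HIF2A siRNA (1.5% of all genes), 1 between the double knockdown and HIF1A siRNA (1.4%) and 1 between the double knockdown and HIF2A siRNA (4%), in each case IRS2. The interaction of the siRNAs, which asks whether the double knockdown departed from the product of the single ones, called 0 of 8 members and 0% of the 13000 genes tested by edgeR, with 318 genes (2.45%) at an unadjusted p under 0.05 and 11 called by DESeq2. IRS2 was the member at an unadjusted p under 0.05 in that test. The median log2 fold change over the 8 members lay between -0.25 and 0.11 in the 7 tests, and the median over all genes tested between -0.01 and 0.01.

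**Figure D1:**
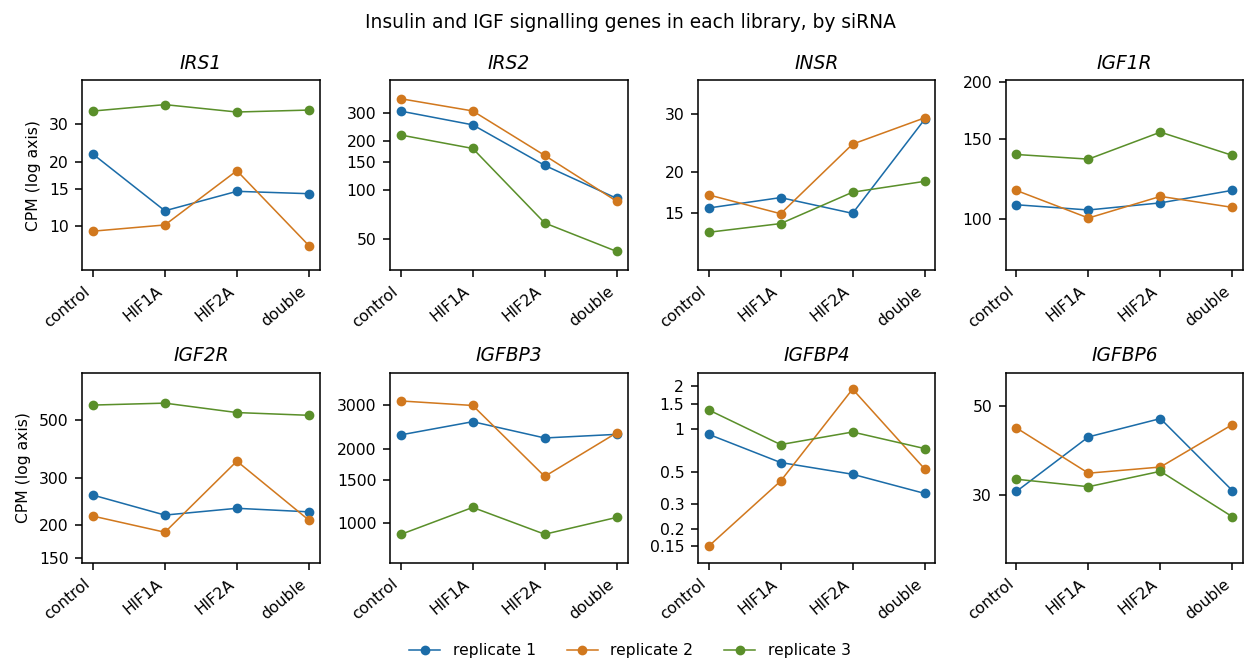
CPM (counts scaled by library size, log axis, a different range in each panel) of the 8 genes in the 12 libraries, 1 point per library, placed by siRNA group, with a line joining libraries of the same replicate number. IRS2 falls along every line from control siRNA to the double knockdown, while IRS1, IGF1R and IGF2R are highest and IGFBP3 lowest in replicate 3 of every group.

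Total counts ran from 13263168 to 20451433 per library, with normalization factors from 0.980 to 1.02. HIF1A RNA was 58.2 to 120 CPM in control siRNA and 15.0 to 22.2 CPM with HIF1A siRNA. EPAS1 was 138 to 171 CPM in control siRNA and 9.16 to 11.9 CPM with HIF2A siRNA. With HIF1A siRNA, EPAS1 was below every control library, at 62.2%, 77.1% and 78.5% of the control library of the same number. That difference was -0.47 on the log2 scale and was not called (edgeR quasi-likelihood, Benjamini-Hochberg adjusted p = 0.28). HIF1A with HIF2A siRNA overlapped control siRNA (log2 0.37) and was not called. Whether the lower EPAS1 bore on other genes was not tested. In the double knockdown HIF1A stood at 24.2 to 32.2 CPM and EPAS1 at 7.01 to 11.3 CPM, so each targeted gene was low in every library labelled with its siRNA. HIF1A was higher in all 3 double knockdown libraries than in any library with HIF1A siRNA alone, by 0.66 on the log2 scale (edgeR quasi-likelihood, Benjamini-Hochberg adjusted p = 0.18). All 8 renal epithelial markers examined were detected, PAX8 at 197 to 315 CPM, while PTPRC, CD3E and PECAM1 had 0 counts in all 12 libraries. Other markers listed for immune cells and for pericytes or fibroblasts were detected. CD68 stood at 32.6 to 65.1 CPM, COL1A1 at 16.6 to 71.1, RGS5 at 1.73 to 10.4 and PDGFRB at 0.647 to 8.58 CPM. LYZ had at most 30 counts, VWF 8, CDH5 6, KDR 4 and DCN 1. Replicate 2 with HIF2A siRNA stood apart from the other replicate 2 libraries for IRS1, IGF2R, IGFBP3 and IGFBP4, and fold changes of these genes that rest on it are given with and without it. In bulk RNA, fewer cells of a kind and less RNA per cell cannot be told apart.

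IRS2 is a docking protein that couples the insulin and IGF-I receptors to PI3-kinase and is annotated on chromosome 13 from 109752695 to 109786583 on GRCh38. In control siRNA it stood at 308, 367 and 219 CPM in replicates 1, 2 and 3. With HIF1A siRNA it stood at 253, 309 and 181 CPM. Each HIF1A siRNA library was thus a little below the control library of the same number, at 82.3%, 84.1% and 82.6% of it, although the groups overlapped. In all 30.3% of genes tested moved 1 way in all 3 pairs here. The fitted log2 fold change was -0.27 (SE 0.14, 95% interval -0.58 to 0.05) and the difference was not called (edgeR quasi-likelihood, Benjamini-Hochberg adjusted p = 0.78).

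With HIF2A siRNA, IRS2 stood at 142, 164 and 62.8 CPM. All 3 libraries were below all 3 control libraries, which 5.27% of genes tested showed in either direction. The libraries held 46.3%, 44.7% and 28.7% of the level in the control library of the same number, replicate 3 being lowest in both groups and falling by the most. The log2 fold change was -1.34 (SE 0.15, 95% interval -1.66 to -1.01, edgeR quasi-likelihood, Benjamini-Hochberg adjusted p = 0.00415), a level 0.396 times that of control. IRS2 was 2.10 times higher with HIF1A siRNA than with HIF2A siRNA (log2 1.07, SE 0.15, adjusted p = 0.00154 in the same test), and these groups did not overlap, as was the case for 7.89% of genes tested.

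In the double knockdown, IRS2 stood at 89.1, 85.6 and 42.0 CPM, below every control library and every library with HIF1A siRNA. This was 29.0%, 23.3% and 19.1% of the control library of the same number. The log2 fold change was -2.09 against control siRNA (SE 0.15, adjusted p = 3.17e-07) and -1.82 against HIF1A siRNA (SE 0.14, adjusted p = 9.69e-06; edgeR quasi-likelihood, Benjamini-Hochberg). Against HIF2A siRNA alone the double knockdown libraries held 62.6%, 52.2% and 66.8% of the level of the same replicate number. That difference was -0.74 on the log2 scale (SE 0.14, adjusted p = 0.00668 in the same test), although the groups overlapped because replicate 3 with HIF2A siRNA lay below replicates 1 and 2 of the double knockdown. The double knockdown departed from the product of the single knockdowns by -0.47 on the log2 scale (SE 0.20, 95% interval -0.89 to -0.05, unadjusted p = 0.031 and adjusted p = 1.00 in the same edgeR quasi-likelihood fit, with Benjamini-Hochberg adjustment).

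Apart from that of the double knockdown against control siRNA, the calls on IRS2 rested on pairing libraries by replicate number and were lost without it. In the edgeR quasi-likelihood fit without the replicate number, the log2 fold change with HIF2A siRNA was -1.26 and the Benjamini-Hochberg adjusted p rose to 1.00, and in the double knockdown against control it was -2.05 and IRS2 was still called. Leaving out replicate 3, the fold change with HIF2A siRNA was -1.14 (edgeR, Benjamini-Hochberg adjusted p = 0.0833), and leaving out control replicate 3 it was -1.24 (adjusted p = 0.0627). In the double knockdown against control siRNA, IRS2 was called in 22 of 22 alternatives, at log2 fold changes from -2.25 to -1.94.

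IRS1, the other IRS protein among the members, passed the test in none of the comparisons. It stood at 21.8, 9.48 and 34.6 CPM in control siRNA, 11.8, 10.1 and 37.1 CPM with HIF1A siRNA, 14.6, 18.2 and 34.2 CPM with HIF2A siRNA and 14.2, 8.12 and 35.0 CPM in the double knockdown. Replicate 3 was highest in every group, and all groups overlapped. Against control siRNA the log2 fold changes were -0.24 with HIF1A siRNA (95% interval -0.79 to 0.31), 0.10 with HIF2A siRNA (-0.44 to 0.65) and -0.28 in the double knockdown (-0.79 to 0.23). The value with HIF2A siRNA rested on replicate 2, where IRS1 was 192% of its control library, and became -0.23 without that library.

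INSR, the insulin receptor, has an annotated span on chromosome 19 from 7112265 to 7294414 on GRCh38. It stood at 15.6, 17.1 and 13.1 CPM in control siRNA and 16.7, 15.0 and 14.0 CPM with HIF1A siRNA. With HIF2A siRNA it was 15.0, 24.3 and 17.4 CPM, and in the double knockdown 28.9, 29.2 and 18.7 CPM. The double knockdown libraries lay above all libraries of control siRNA and of HIF1A siRNA, and overlapped those of HIF2A siRNA. Of all genes tested, 15.6% did not overlap between double knockdown and control siRNA and 8.38% between double knockdown and HIF1A siRNA.

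INSR in the double knockdown was 185%, 171% and 143% of the control library of the same number. The log2 fold change was 0.73 (SE 0.17, 95% interval 0.36 to 1.10, edgeR quasi-likelihood, Benjamini-Hochberg adjusted p = 0.0139). Against HIF1A siRNA it was 0.72 (SE 0.17) at an adjusted p of 0.0544 in the same test, and against HIF2A siRNA 0.43 (SE 0.17) at an adjusted p of 0.203. With HIF1A siRNA alone INSR differed from control by 0.01 on the log2 scale (95% interval -0.39 to 0.41), and with HIF2A siRNA alone by 0.31 (-0.09 to 0.71). The HIF2A siRNA libraries held 96.3%, 142% and 132% of the INSR level in the control library of the same number. The interaction was 0.42 (95% interval -0.10 to 0.94), so a rise particular to the double knockdown was not shown.

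The INSR call was close to the threshold. It was lost in 6 of 22 alternatives, among them the fit without the replicate number (log2 fold change 0.74, edgeR quasi-likelihood Benjamini-Hochberg adjusted p = 0.185), without replicate 1 (0.64, adjusted p = 0.102), without replicate 3 (0.84, adjusted p = 0.0994) and without double knockdown replicate 1 (0.61, adjusted p = 0.109). Leaving out control replicate 3 gave an adjusted p of 0.0595 and leaving out double knockdown replicate 2 gave 0.0540 in the same edgeR fit with Benjamini-Hochberg adjustment. INSR was higher in the double knockdown in all 22 alternatives, by 0.61 to 0.86 on the log2 scale. Its counts were 212 to 571 per library.

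IGF1R, the kinase receptor for IGF-I that also binds IGF-II, passed the test in none of the comparisons. Its mean was 121 ± 16.2 CPM (SD, n = 3) in control siRNA, 114 ± 19.1 with HIF1A siRNA, 126 ± 26.0 with HIF2A siRNA and 120 ± 16.4 in the double knockdown, and the groups overlapped. The log2 fold changes against control siRNA were -0.09 (95% interval -0.33 to 0.15), 0.05 (-0.19 to 0.29) and -0.01 (-0.22 to 0.20) in that order. Over the 3 comparisons the interval reached no lower than -0.33 and no higher than 0.29.

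IGF2R, the non-kinase receptor that clears IGF-II, ranged from 188 to 576 CPM, and replicate 3 was the highest library of every group at 519 to 576 CPM. Its log2 fold changes against control siRNA were -0.14 with HIF1A siRNA (95% interval -0.52 to 0.25), 0.17 with HIF2A siRNA (-0.21 to 0.56) and -0.13 in the double knockdown (-0.47 to 0.20). The value with HIF2A siRNA again rested on replicate 2, where IGF2R was 161% of its control library and 349 CPM. Without that library the value was -0.14.

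IGFBP3, the binding protein that carries most IGF in blood, was by far the most abundant member and took between 0.0881% and 0.310% of all counts in a library. It stood at 2280, 3130 and 900 CPM in control siRNA, 2579, 3000 and 1158 CPM with HIF1A siRNA, 2215, 1547 and 901 CPM with HIF2A siRNA and 2291, 2325 and 1055 CPM in the double knockdown. Replicate 3 was lowest in every group, and all groups overlapped. Against control siRNA the log2 fold changes were 0.15 with HIF1A siRNA (95% interval -0.20 to 0.50), -0.33 with HIF2A siRNA (-0.69 to 0.02) and -0.08 in the double knockdown (-0.41 to 0.25).

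IGFBP3 was higher with HIF1A siRNA than with HIF2A siRNA in all 3 pairs, at 116%, 194% and 128%, as were 37.3% of genes tested in one direction or the other. The log2 difference of 0.48 (SE 0.16) had an unadjusted p of 0.011 and a Benjamini-Hochberg adjusted p of 0.261 (edgeR quasi-likelihood). It passed the threshold in 2 of 20 alternatives, with no filter on low counts and without control replicate 2. Replicate 2 with HIF2A siRNA carried most of the difference from control: its IGFBP3 was 49.4% of the control library of that number against 97.2% and 100% in the other pairs. Without that library the log2 fold change against control was -0.07 and the log2 difference between the single knockdowns was 0.24 (edgeR quasi-likelihood, Benjamini-Hochberg adjusted p = 0.59).

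IGFBP6, which prefers IGF-II, stood between 26.5 and 46.5 CPM over the 12 libraries. Its log2 fold changes against control siRNA were -0.01 with HIF1A siRNA (95% interval -0.37 to 0.35), 0.11 with HIF2A siRNA (-0.25 to 0.47) and -0.09 in the double knockdown (-0.47 to 0.28). IGFBP4, a binding protein cleaved by the protease PAPPA, was barely detected, at 3 to 30 counts per library or 0.151 to 1.91 CPM. Its log2 fold changes of -0.36, 0.55 and -0.56 had 95% intervals that reached from -2.14 to 2.23, so a change of several-fold was not detectable at this depth. The value with HIF2A siRNA rested on replicate 2, where IGFBP4 was 1268% of its control library against 52.4% and 69.9% in the other pairs, and became -0.46 without that library.

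**Figure D2:**
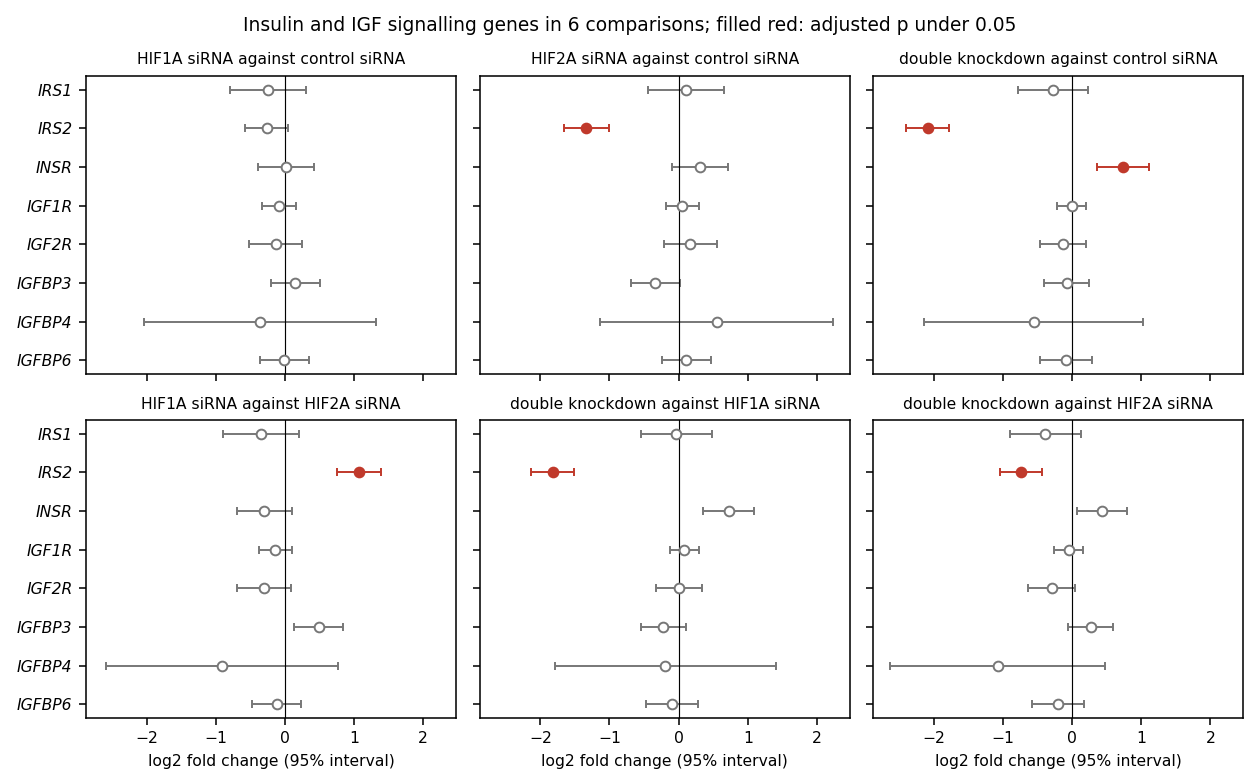
Log2 fold change of the 8 genes in the 6 comparisons between siRNA groups, with the 95% interval of the edgeR fit (3 libraries per group); filled red points passed an adjusted p of 0.05. IRS2 is called in 5 panels and INSR in the panel of the double knockdown against control siRNA, and the interval of IGFBP4 is the widest in every panel.

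Per length of transcript the members spanned a wide range of levels. In control siRNA, IGFBP3 stood at 805 ± 431 CPM per kb of its MANE Select transcript (SD, n = 3), followed by IGFBP6 at 37.9 ± 7.62, IRS2 at 36.5 ± 9.12 and IGF2R at 24.7 ± 13.6. IGF1R stood at 9.87 ± 1.32 CPM per kb, IRS1 at 2.25 ± 1.28, INSR at 1.61 ± 0.209 and IGFBP4 at 0.368 ± 0.278. IGFBP6, IRS2 and IGF2R did not differ beyond their spread, nor did IRS1 and INSR, while IGFBP3, IGF1R and IGFBP4 did not overlap with their neighbours in this order. On the same scale IRS2 fell to 15.1 ± 6.54 with HIF2A siRNA and 8.86 ± 3.22 in the double knockdown, where it overlapped IGF1R at 9.82 ± 1.34. IRS2 was thus 16.3 times IRS1 per kb in control and 4.53 times in the double knockdown, by the ratio of group means.

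**Figure D3:**
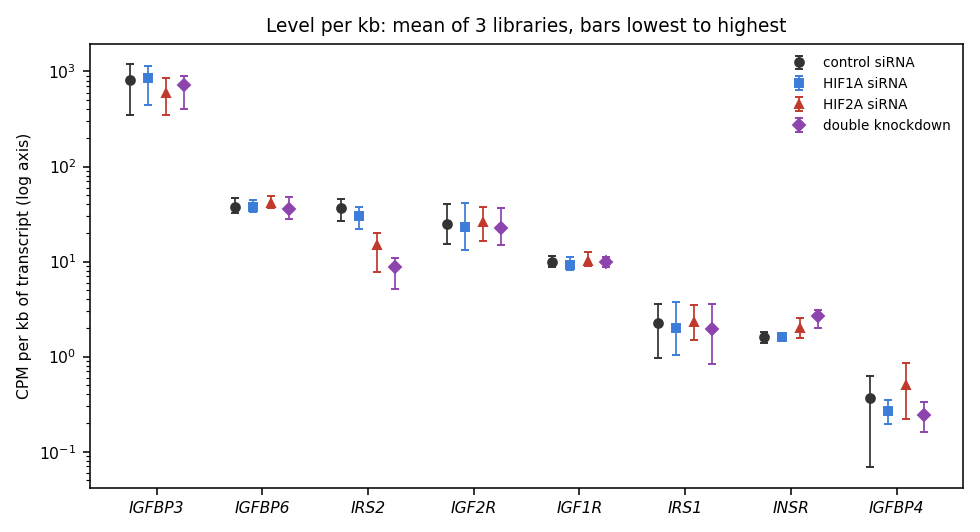
Level per kb of MANE Select transcript (CPM per kb, log axis) of the 8 genes, ordered by their mean in control siRNA; points are means of 3 libraries and bars run from the lowest to the highest library. IGFBP3 lies above every other gene in all groups, and IRS2 descends from the level of IGFBP6 in control siRNA to that of IGF1R in the double knockdown.

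For 4 of the 8 members most of the spread between libraries went with the replicate number. Splitting the spread of log2(CPM + 0.5) over the 12 libraries, replicate number took 83.8% for IRS1, 86.8% for IGF1R, 88.6% for IGF2R and 84.3% for IGFBP3, and the siRNA group took between 3.50% and 8.32%. A replicate share of 80% or more was seen in 12.3% of genes tested. For IRS2 and INSR the siRNA group took 77.7% and 62.7%, a share of 60% or more being seen in 8.3% of genes. For IGFBP4 and IGFBP6 the remainder was the largest part, at 65.7% and 59.1%.

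For 5 members replicate 3 lay to the same side of the other replicates in every siRNA group. It stood at 209% to 338% of the mean of replicates 1 and 2 for IRS1, at 124% to 141% for IGF1R and at 183% to 284% for IGF2R. It stood at 33.3% to 47.9% of that mean for IGFBP3 and at 41.0% to 65.0% for IRS2. The share of all genes with replicate 3 to the same side in every group was not computed. Replicate number took a median of 46.4% of the spread over all genes tested. Replicates 1 and 2 were less regular: with HIF2A siRNA replicate 2 was above replicate 1 for IRS1 and IGF2R and below it for IGFBP3, the reverse of the order in the other 3 groups. What distinguished the replicates was not tested, and the labels give no batch beyond the number.

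**Figure D4:**
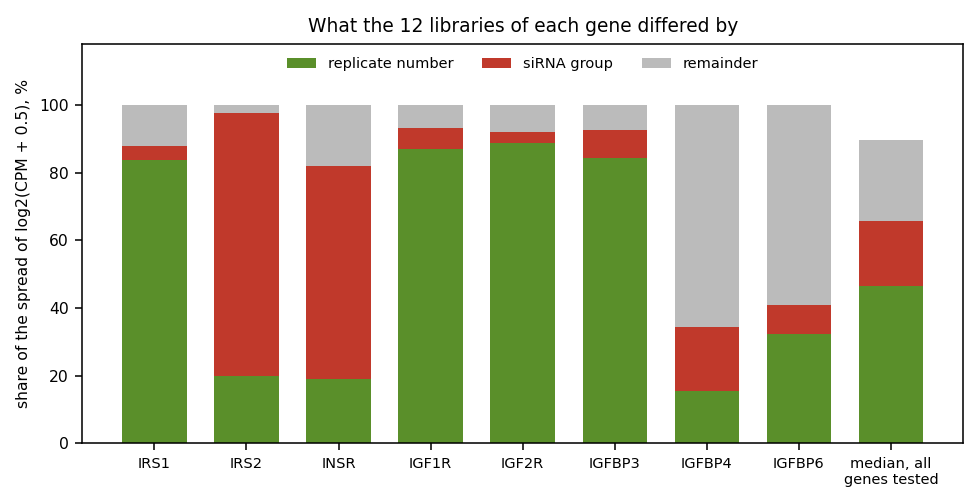
Share (%) of the spread of log2(CPM + 0.5) over 12 libraries that went with replicate number, siRNA group and neither, for each of the 8 genes and as separate medians over the 13000 genes tested, which need not add to 100%. Replicate number takes over 80% for IRS1, IGF1R, IGF2R and IGFBP3, while the siRNA group takes most for IRS2 and INSR.

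Around the 8 members, 81 other genes of the pathway were listed by role, and 70 passed the filter on low counts. With HIF1A siRNA against control siRNA 3 of the 70 were lower and 0 higher, with HIF2A siRNA 1 was lower and 0 higher, and in the double knockdown 10 were lower and 3 higher. Their median log2 fold changes in these comparisons were -0.03, -0.02 and -0.05. Of all genes tested, 1.14% were called lower with HIF1A siRNA. With HIF2A siRNA 0.0857% were called lower. The shares in the double knockdown were 6.42% lower and 3.86% higher.

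Of the ligands, INS had 0 counts in every library, where a count of 0 allows up to 3 counts or 0.226 CPM in the shallowest library, and IGF1 had at most 1 count. IGF2 was detected at 1.35 to 3.24 CPM and was not called in any comparison, and its reads cannot be told apart from those of the INS-IGF2 readthrough transcript. The related receptor INSRR and the docking protein IRS4 had at most 1 and 0 counts. IGFBP1 and IGFALS, which forms the large carrier complex with IGFBP3, also stayed under the filter at up to 18 and 10 counts. IGFBP7, which binds IGFs weakly, stood at 119 to 270 CPM and differed from control by between -0.05 and 0.03 on the log2 scale.

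Of the 6 genes listed as proteases of the binding proteins, their inhibitors and the IGFBP3 receptor TMEM219, STC1 and STC2 fell and 0 rose. These stanniocalcins are secreted inhibitors of PAPPA and PAPPA2, the proteases that cleave IGFBPs. STC1 was 75.9 ± 32.1 CPM in control siRNA (SD, n = 3) and 16.7 ± 7.67 CPM with HIF1A siRNA, a log2 fold change of -2.19 (SE 0.17, edgeR quasi-likelihood, Benjamini-Hochberg adjusted p = 1.07e-05). It was 9.14 ± 4.62 CPM in the double knockdown (log2 -3.10). STC2 fell from 436 ± 24.7 CPM to 270 ± 44.7 CPM with HIF1A siRNA (log2 -0.70, adjusted p = 0.00845 in the same test) and to 201 ± 29.1 CPM in the double knockdown (log2 -1.13). Neither was called with HIF2A siRNA alone. PAPPA itself had 6 to 34 counts per library and PAPPA2 0 to 62, and neither passed the test against control siRNA.

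TRIB3, a pseudokinase that binds AKT and restrains it, was called with HIF2A siRNA as IRS2 was. It fell from 220 ± 12.1 CPM in control siRNA to 128 ± 10.2 CPM (log2 -0.78, SE 0.11, edgeR quasi-likelihood, Benjamini-Hochberg adjusted p = 0.0167) and to 83.3 ± 8.33 CPM in the double knockdown (log2 -1.40). The call with HIF2A siRNA alone held in 12 of 20 alternatives and not without the replicate number. Of the other negative regulators, in the double knockdown SOCS3 was called higher (log2 0.69) and the INSR inhibitor ENPP1 lower (-0.54), and they kept their calls in 10 and 12 of 22 alternatives.

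Downstream of the docking proteins, the changes in the double knockdown were few and in different arms. PIK3R2, a regulatory subunit of PI3-kinase, rose from 44.7 ± 7.33 CPM to 98.2 ± 1.47 CPM (log2 1.14, SE 0.13, edgeR quasi-likelihood, Benjamini-Hochberg adjusted p = 3.73e-05), and 1 of the 14 genes of the PI3K and AKT arm was called in all. MAP2K1, the kinase MEK1, fell from 131 ± 12.7 CPM to 60.8 ± 6.31 CPM (log2 -1.11) and was also lower with HIF1A siRNA alone (log2 -0.73, adjusted p = 0.00434 in the same test). SOS1, which loads RAS with GTP, was lower by 0.83, and in the mTOR arm RPS6KB1, the S6 kinase, fell by 0.53 and RHEB by 0.40 on the log2 scale while AKT1S1, an AKT substrate that restrains mTOR, rose by 0.48. These 3 calls of the mTOR arm held in 16, 15 and 14 of 22 alternatives, and none of the 4 genes SOS1, RPS6KB1, RHEB and AKT1S1 was called without the replicate number. Of the 6 genes of the list of FOXO, GSK3 and TBC1D4, and of the 6 tested FOXO target genes, 0 were called by edgeR in the double knockdown, with 3 and 4 genes at an unadjusted p under 0.05. Of the 70 other pathway genes tested, these included, 19 were lower and 11 higher at that unadjusted threshold. The share of all genes at that threshold is not reported here for this comparison, so these unadjusted counts have no background to be read against.

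**Figure D5:**
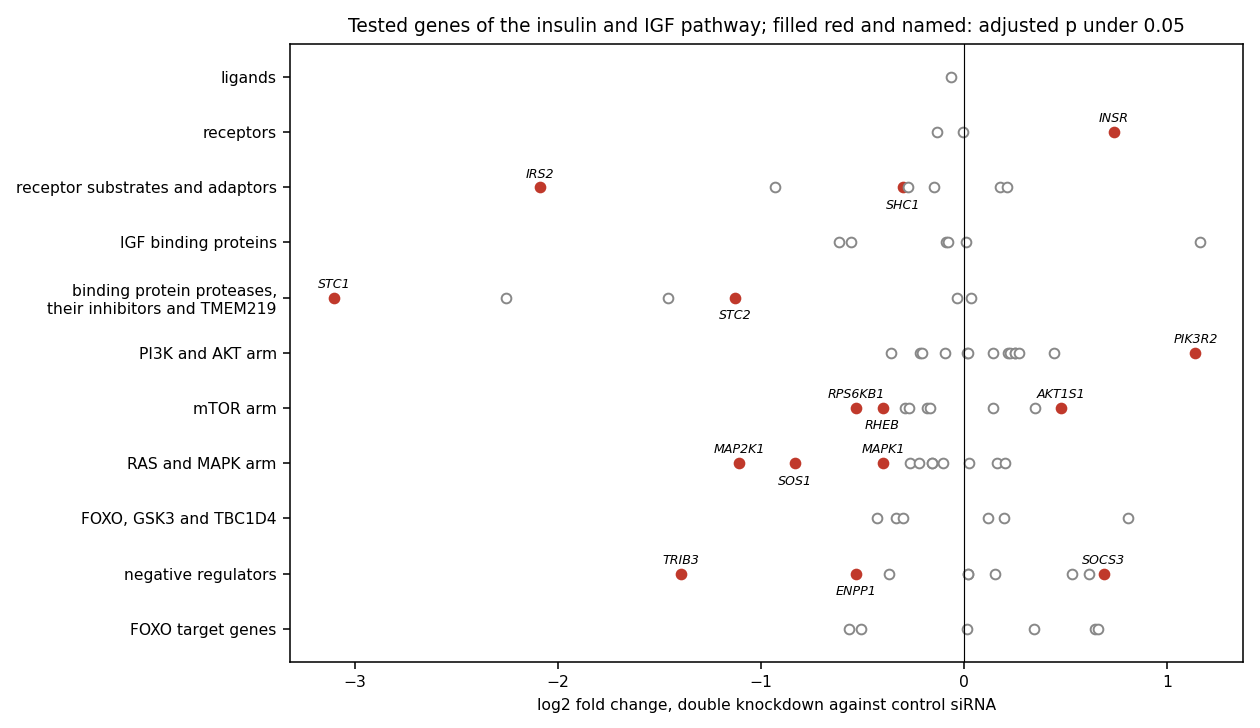
Log2 fold change in the double knockdown against control siRNA of the 78 tested pathway genes, members included, in rows by role; filled red points with a name passed an adjusted p of 0.05. Of the called genes, STC1 and IRS2 lie farthest to the left and PIK3R2 and INSR farthest to the right.

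The genes whose pattern was most like that of a member were found by the Pearson correlation of log2(CPM + 0.5), less the mean of the replicate number, over 12 libraries and 13000 genes. These libraries share siRNA groups and sequencing depth, so the values are given as a description. IRS2 was most like FMNL1 (r = 0.983), ABR (0.980) and CCND1 (0.975), the last encoding cyclin D1. INSR was most like PPARGC1A (0.929), the coactivator PGC-1α, JAG1 (0.928) and FAM66B (0.925). IRS1 was most like PTPRG (0.984), UGGT1 and AFF4, and IGFBP3 most like ZNF235 (0.956), GOLPH3 and RNF130. For IGF1R the nearest were SIM2 (0.872), SDHAP1 and CARHSP1, for IGFBP4 ZNF699 (0.965), UBTF and GPATCH3, and for IGFBP6 BMP1 (0.940), DUSP5 and SCRN2. Without replicate 2 with HIF2A siRNA, the first r was 0.960 for IRS1, 0.864 for IGFBP3 and 0.885 for IGFBP4.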

How the data were processed

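RNA-seq of the 12 RCC4 libraries was processed by the authors, who deposited raw read counts per gene symbol. Per the labels, polyadenylated RNA was prepared with a directional kit, and the submitters' processing notes name Trim Galore 0.3.3, HISAT2 2.05, Picard 2.0.1, HTSeq 0.5.4p3, DESeq2 and the GRCh37 (hg19) build. The strand setting of the counting is not given in the sources used here, so overlapping antisense genes could not be separated.

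The members and the gene lists were chosen with earlier results of these data known. Groups came from the sample titles. Counts were tested with edgeR 4.0.16 in R 4.3.3 by the quasi-likelihood test, with filterByExpr (a minimum count of 10), TMM normalization, siRNA group and replicate number as terms, and Benjamini-Hochberg adjustment over all genes tested; a gene was called at an adjusted p under 0.05. The comparisons between the single knockdowns and control siRNA used 9 libraries and 12830 genes, and those with the double knockdown used 12 libraries and 13000 genes. CPM used the library totals times the TMM factor. The script was tested on simulated data. Replicates were paired because the study's methods pair conditions by biological replicate. The deviations of same-numbered libraries from their group means correlated over genes at r = 0.0991 to 0.813 in 18 pairs, 17 of them over 0.1. The 36 pairs of different numbers gave r = -0.724 to 0.527, 9 of them over 0.1. Deviations from a group mean cancel within the group, so these ranges are not independent of each other.

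Genes were named by rule: the 8 members; HIF1A and EPAS1; of the other pathway genes, at most 8 per comparison against control siRNA by adjusted p, plus ligands and genes under the filter; and the 3 genes most correlated with each member, which for IGF2R are not reported here. SOCS3, ENPP1, AKT1S1, IGFBP7, PAPPA and PAPPA2 were named after their values were seen. Alternatives were DESeq2 1.42.0 with the replicate number, its size factors, other filters, an adjusted p under 0.1, other sets of libraries, no replicate block and leaving out each replicate. Transcript lengths and gene positions came from GENCODE v44 (GRCh38). Intervals of 95% are for the fold change, from the spread left after siRNA group and replicate number were fitted. With 3 libraries per group they are wide. Depth was 13263168 to 20451433 counts per library.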

Additional observations from a re-analysis of the deposited data

How the results depend on the processing

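The fit without a replicate block, which ignores the pairing by replicate number, changed the most: members called went to 0 for HIF2A siRNA against control siRNA, 0 for HIF1A siRNA against HIF2A siRNA, and in the double knockdown to 1 against control siRNA, 0 against HIF1A siRNA and 0 against HIF2A siRNA. Genes called over the whole table then fell from 150 to 41, from 11 to 1, from 193 to 52, from 1336 to 195, from 182 to 8 and from 520 to 90, in the order HIF1A siRNA and HIF2A siRNA against control, HIF1A against HIF2A siRNA, and the double knockdown against control, HIF1A and HIF2A siRNA. With HIF1A siRNA against control and in the interaction 0 members were called with or without the block, which changed no other member's call. With DESeq2 these totals were 236, 58, 329, 1850, 403 and 818. Fitted on the 6 compared libraries they were 2609, 656 and 164 in the double knockdown and 3 with HIF2A siRNA against control, where no filter gave 41.

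The double knockdown against HIF1A siRNA called 2 members, IRS2 and INSR, with no filter, with DESeq2, at an adjusted p under 0.1 and on the 6 compared libraries, and HIF1A against HIF2A siRNA called 2, IRS2 and IGFBP3, with no filter. Leaving out a replicate number or a library, members called ranged from 0 to 1 (HIF2A siRNA against control, 0 without replicate 3 and without control replicate 3), 1 to 2 (HIF1A against HIF2A siRNA, 2 without control replicate 2), 1 to 2 (double knockdown against control, 1 without replicate 1, replicate 3, control replicate 3, double knockdown replicate 1 or double knockdown replicate 2) and 1 to 2 (double knockdown against HIF1A siRNA, 2 without control replicate 1, HIF2A siRNA replicate 1 or HIF2A siRNA replicate 2). The cause was not tested. All changes of sign were in members that were not called under either setting. With HIF1A siRNA against control, INSR was -0.0024 on the log2 scale without the replicate block, and IGFBP6 was 0.0029 in the fit on all 12 libraries and 0.0077 on the 6 compared. Leaving out replicates or libraries, log2 fold changes with HIF1A siRNA ranged from -0.13 to 0.15 for INSR, -0.23 to 0.21 for IGFBP6, -0.48 to 0.11 for IRS1, -1.05 to 0.17 for IGFBP4 and -0.29 to 0.0185 for IGF2R. With HIF2A siRNA they ranged from -0.12 to 0.32 for IGFBP6, -0.31 to 0.48 for IRS1, -0.14 to 0.35 for IGF2R, -0.70 to 1.24 for IGFBP4 and -0.0141 to 0.0974 for IGF1R. In the double knockdown they ranged from -0.0734 to 0.0493 for IGF1R, -0.22 to 0.15 for IGFBP3, -0.30 to 0.0331 for IGFBP6 and -0.45 to 0.0412 for IRS1. IGFBP4 gave no value under the filter of 10 counts in every library.

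The other pathway genes were run under the same alternatives, chosen after seeing the data. In the double knockdown against control, 13 were called, and 5 without the replicate block (STC1, STC2, PIK3R2, MAP2K1 and TRIB3), 20 at an adjusted p under 0.1 and 23 on the 6 compared libraries. With HIF1A siRNA 3 were called and 0 without the block, and with HIF2A siRNA 1 was called, TRIB3, and 0 without the block. With 3 libraries per group and 3 to 30 counts, IGFBP4 was limited by depth. For the other members the width of the intervals reflected the spread left after siRNA group and replicate number were fitted.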

Other observations

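Among the members themselves, patterns over the 12 libraries, after the mean of each replicate number was removed, ran together or apart as follows, as a description over libraries that share siRNA groups and depth. IRS2 and INSR ran in opposite directions (Pearson r = -0.83). Without replicate 2 with HIF2A siRNA, an alternative chosen after seeing the data, this r was -0.83 as well. The other pairs at an r over 0.75 in size rested on that library. IRS1 with IGF2R went from 0.86 to 0.58 without it, IGF2R with IGFBP3 from -0.80 to -0.12, IGF2R with IGFBP4 from 0.83 to 0.27, and IGFBP3 with IGFBP4 from -0.86 to -0.55. IGFBP4 was measured at 3 to 30 counts.

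The balance of the docking proteins can be read within a library, where depth cancels. The log2 ratio of IRS2 to IRS1 counts was 3.82, 5.27 and 2.66 in control siRNA, while HIF1A siRNA gave 4.42, 4.93 and 2.29 and HIF2A siRNA 3.29, 3.17 and 0.88. The double knockdown gave 2.65, 3.40 and 0.26. Replicate 3 was lowest in every group, and the groups overlapped. Against the control library of the same number the log2 ratio was lower in all 3 pairs in the double knockdown, by differences of -1.17, -1.88 and -2.40, and with HIF2A siRNA, by -0.53, -2.10 and -1.79. With HIF1A siRNA it was higher in 1 pair (0.60) and lower in the others (-0.35 and -0.38). These differences were not tested. In replicate 2 with HIF2A siRNA, the library that stood apart, IRS1 was 192% and IRS2 44.7% of the control library. The difference of -2.10 thus rested in part on IRS1 in that library, and the other pairs with HIF2A siRNA gave -0.53 and -1.79. In replicate 3 of the double knockdown, IRS2 had 862 counts and IRS1 had 718.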
